A study of Mus musculus with 4 samples.

Results

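The enzymes that write and erase DNA methylation were followed across mouse cells sorted from embryoid bodies, through all probe sets of 8 listed genes: Dnmt1, Dnmt3a, Dnmt3b, Dnmt3l, Tet1, Tet2, Tet3 and Uhrf1. The rule picks genes by name and uses no threshold on their values, although the list was drawn up with earlier results of these data known. Of the 8 genes, 7 were paired with 14 of the 45141 probe sets on the array, and no probe set was paired with Tet1 in the annotation used here, so Tet1 was not analysed. The same annotation named 17097 genes in all. Embryonic stem cells that were either control (labelled F/F) or Snai1 knockout were cultured, first in hanging drops and later in suspension, into embryoid bodies, which are balls of differentiating stem cells. These were taken apart on day 4 and sorted with an antibody to Flk1, the VEGF receptor encoded by Kdr, which marks early mesoderm with hematopoietic and endothelial potential. Each genotype gave a Flk1+ and a Flk1- fraction, which makes 4 groups with 1 Affymetrix array each. The labels give the same protocol of culture and sorting for all 4 groups, and do not say whether they were cultured or sorted together. The knockout Flk1- sample is labelled day 4 in its description and day 5 in its source name. The sources used here do not say how many clones or sorts stand behind a sample.

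As background, DNA methylation in mammals is set and copied by different enzymes. Dnmt3a and Dnmt3b place new methyl groups on CpG sites, and Dnmt3l, which has no catalytic activity of its own, binds to and stimulates them. Dnmt1 copies the pattern onto the new strand after replication and is brought there by Uhrf1, which recognises half-methylated CpG sites. The Tet enzymes oxidise methylcytosine, a first step of active demethylation. Cells of the early embryo have low methylation and gain it as the epiblast forms, a stage at which Dnmt3b is abundant, while Dnmt3l is typical of early pluripotent cells and the germ line.

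Values are log2 expression values per probe set, so a difference of 1 is 2-fold. With 1 array per group no spread between replicates can be measured, so differences were not tested and have no replicate check. A floor of 3.19, the 40th percentile of all gene values on all arrays, separated genes with signal from those without. On the 4 arrays 10195 to 10302 genes were above it, and all 7 measured genes were above it on all 4 arrays through their probe set with the highest mean, which stands for the gene. For control and knockout, Kdr was at 8.92 and 9.03 in the Flk1+ fractions and at 4.55 and 3.88 in the Flk1- fractions. Snai1 was at 1.88 to 2.56, below the floor on all 4 arrays, and so does not check the genotype labels. The gap between the 3' and 5' control probe sets of Gapdh, a sign of RNA quality and amplification, was smallest in knockout Flk1+ cells at 1.47, against 1.76 to 2.05 on the other arrays, and its part in the differences below was not tested. As a yardstick for noise, the 6142 genes below the floor on all arrays had differences with an SD of 0.17 to 0.20 across the 4 comparisons. That SD holds no spread between cultures or sorts. Of 5 ubiquitous genes measured, Hprt was past 2-fold between the fractions of the knockout at -1.41, and 0 were in the other comparisons. Hprt also differed by -0.75 by sort in the control and by -0.49 for genotype in Flk1+ cells. Its order of levels over the arrays was the one given below for Dnmt1.

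Dnmt3b, the de novo methyltransferase of the epiblast, differed with both genotype and sort. Its probe set with the highest mean (1449052_PM_a_at) read 8.24 (Flk1+) and 9.14 (Flk1-) in the control and 9.21 (Flk1+) and 9.64 (Flk1-) in the knockout. Control Flk1+ cells were thus lowest and knockout Flk1- cells highest, with control Flk1- and knockout Flk1+ cells within 0.08 of each other. The second probe set (1418351_PM_a_at) read 7.21, 8.21, 8.21 and 8.80 in the same order of groups and gave the same order of levels. In Flk1+ cells the knockout was higher by 0.98 (1.97-fold), and the second probe set gave 1.005 (2.01-fold). In Flk1- cells it was higher by 0.51, with 0.59 from the second probe set. Flk1+ cells were lower than Flk1- cells, with a difference of -0.90 in the control (-1.003 from the second probe set) and of -0.43 in the knockout (-0.59), the latter becoming -0.28 after centring on the median. The values of Dnmt3b therefore lay on either side of the 2-fold line in Flk1+ cells depending on the probe set. Of the genes above the floor, 98.0% had a smaller difference in size than Dnmt3b between knockout and control Flk1+ cells, and 96.7% did between the sorted fractions of the control.

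Dnmt3l, the cofactor without catalytic activity, was measured by a single probe set (1425035_PM_s_at) of a kind whose probes can match transcripts of more than 1 gene, per the array's naming. It read 3.47 (Flk1+) and 4.06 (Flk1-) in the control and 3.63 (Flk1+) and 5.05 (Flk1-) in the knockout. The knockout Flk1- array stood apart as the highest, and the Flk1+ arrays lay just above the floor. In Flk1- cells the knockout was higher by 0.99 (1.98-fold), just under the 2-fold line, and in Flk1+ cells by 0.17. Flk1+ cells were lower, with differences of -0.60 in the control and -1.42 (2.68-fold) in the knockout. Both Dnmt3l differences near or past 2-fold use the knockout Flk1- array, the one whose labels disagree on the day. In size, the knockout minus control difference in Flk1- cells exceeded that of 98.6% of genes above the floor.

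Among the measured genes, these were the 2 whose range over the 4 arrays was at least 1, at 1.41 for Dnmt3b and 1.59 for Dnmt3l, larger than that of 96.4% and 97.3% of the genes above the floor on any array. The orders of their levels were not the same. For Dnmt3b the knockout Flk1+ value was next to the highest, while for Dnmt3l it was next to the lowest. The difference of differences (genotype difference of the Flk1+ fraction less that of the Flk1- fraction) was 0.47 for Dnmt3b and -0.82 for Dnmt3l.

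**Figure D1:**
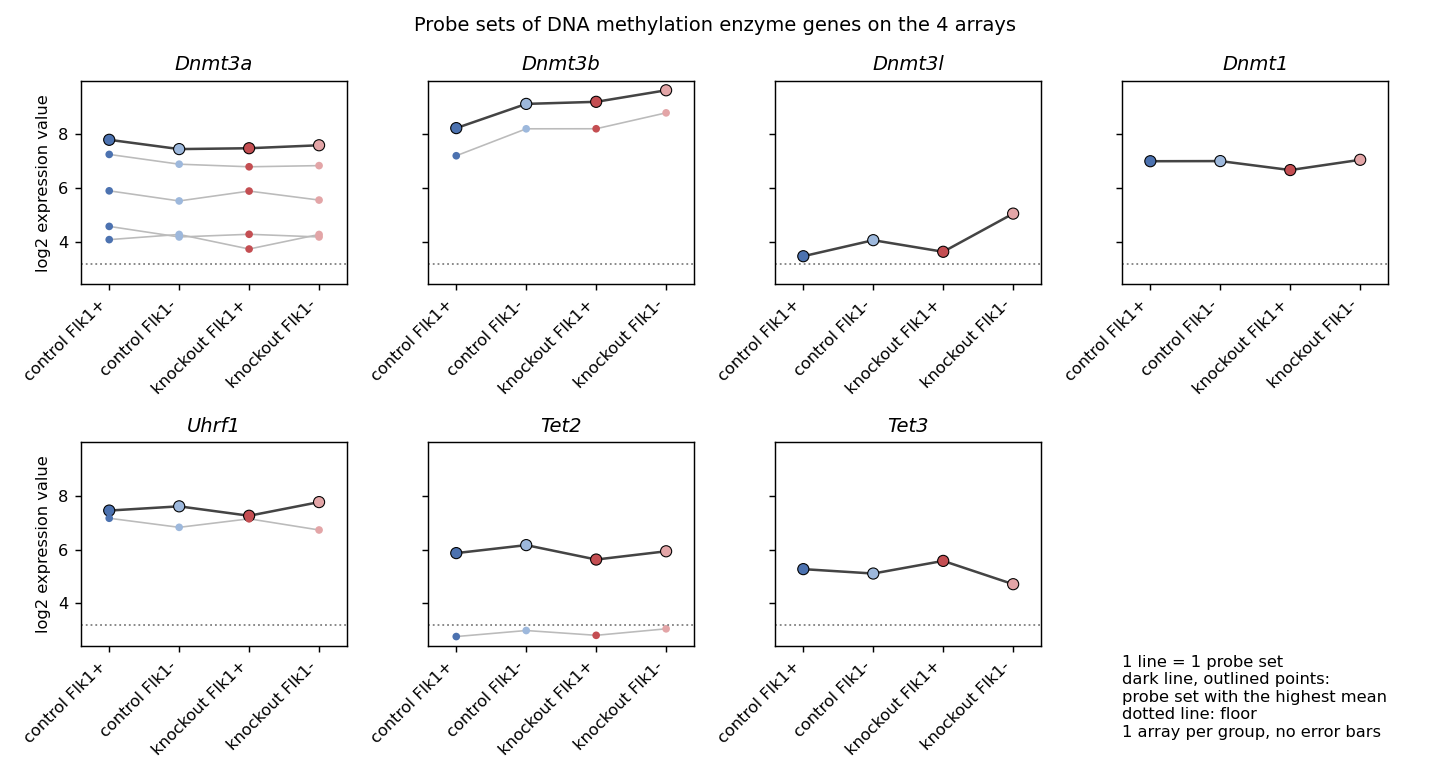
Log2 expression values (vertical axis) of the 14 probe sets on the 4 arrays (horizontal axis), with 1 panel per gene and 1 line per probe set, the dark line being the probe set with the highest mean and the dotted line the floor of 3.19. Dnmt3b runs from 8.24 in control Flk1+ to 9.64 in knockout Flk1- cells and Dnmt3l from 3.47 to 5.05, while the dark lines of Dnmt1, Dnmt3a, Uhrf1 and Tet2 stay within 0.35 to 0.54.

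The promoters of these 2 genes are shown because they had the widest ranges, and because Snai1, the gene knocked out, encodes a repressor known to bind the E-box CAGGTG. The sequences are from RefSeq on build GRCm38.p6, plus strand, 5' to 3', with CAGGTG in capitals. They cover the bases before the annotated start of the gene, chr2:153649199-153649410 for Dnmt3b and chr10:78042037-78042286 for Dnmt3l.
Dnmt3b: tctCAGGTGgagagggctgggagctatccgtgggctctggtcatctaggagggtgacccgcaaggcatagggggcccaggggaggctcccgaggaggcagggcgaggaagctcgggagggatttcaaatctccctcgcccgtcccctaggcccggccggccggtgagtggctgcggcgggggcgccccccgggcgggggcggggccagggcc
Dnmt3l: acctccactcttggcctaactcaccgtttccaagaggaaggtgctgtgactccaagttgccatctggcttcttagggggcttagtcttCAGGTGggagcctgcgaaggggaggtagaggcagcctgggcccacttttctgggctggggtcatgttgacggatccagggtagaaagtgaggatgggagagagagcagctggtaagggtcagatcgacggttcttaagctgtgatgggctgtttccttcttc
The stretch of Dnmt3b holds CAGGTG at base 4 of its 212 bases, and that of Dnmt3l at base 89 of its 250 bases. The Dnmt3b stretch ends at the annotated gene start, 38 bases before the transcript start of its window. For Dnmt3l a further match lies after the transcript start of the same window, outside the printed stretch, and its other 2 windows hold none. The motif CAGGTG, or CACCTG on the other strand, occurred in 20.2% of 32851 promoter windows of 300 bases (250 before and 50 after a transcript start), and at least 1 window held it for 22.6% of 27025 genes. Among the listed genes it was present for 3 of 8 genes, Dnmt1, Dnmt3b and Dnmt3l, in 3 of 15 windows over all 8 genes. A match says only that these letters are there. The stretches differ in CpG content, with 16 CpG sites for Dnmt3b and 5 for Dnmt3l.

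Dnmt3a, the other catalytically active de novo enzyme, was nearly level over the arrays. Its probe set with the highest mean (1423064_PM_at) read 7.80 (Flk1+) and 7.45 (Flk1-) in the control and 7.49 (Flk1+) and 7.60 (Flk1-) in the knockout, a range of 0.35. Control Flk1+ cells were the highest, where Dnmt3b was the lowest. The other 4 probe sets had ranges of 0.38 to 0.54. Between knockout and control Flk1+ cells all 5 probe sets were lower in the knockout, with differences of -0.46 to -0.0089. In Flk1- cells they lay between -0.05 and 0.14, and the highest of these became 0.09 after centring. Flk1+ cells of the control were higher by 0.35 to 0.39 in 4 of 5 probe sets and lower (-0.19) in the fifth (1423063_PM_at). In knockout cells the sort difference was -0.11 for the probe set with the highest mean, but the 5 probe sets ranged from -0.54 to 0.33, and the sign of -0.11 turned after centring, quantile normalization or cyclic loess. Over 3979 genes with several probe sets, the span between them had a median of 0.33 and a 90th percentile of 0.78 in this comparison. The span of Dnmt3a was past both, but a span tends to grow with the number of probe sets. Dnmt3a has 5, and the 3979 genes were not matched for that number.

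Dnmt1, the maintenance methyltransferase, had a range of only 0.38 over the arrays, set mainly by 1 array. Its single probe set (1422946_PM_a_at) read 7.003 (Flk1+) and 7.01 (Flk1-) in the control and 6.67 (Flk1+) and 7.06 (Flk1-) in the knockout. The knockout Flk1+ array was the low one, and the other 3 read 7.003 to 7.06. The knockout was lower (-0.33) in Flk1+ cells and higher by 0.05 in Flk1- cells, and the sign of the latter turned when the arrays were centred on their medians. The sort difference was -0.38 in the knockout, and between -0.23 and -0.22 under the 3 scalings tried. In the control it was -0.0051, which turned sign under all 3. In the comparison of knockout with control Flk1+ cells, 75.9% of genes above the floor had a smaller difference in size. By range over the 4 arrays, 49.3% of genes above the floor on any array were below Dnmt1.

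Uhrf1, which brings Dnmt1 to replicated DNA, gave the order of levels of Dnmt1 in the probe set with the highest mean and another in the second. The first (1415810_PM_at) read 7.45 (Flk1+) and 7.61 (Flk1-) in the control and 7.26 (Flk1+) and 7.77 (Flk1-) in the knockout, so that knockout Flk1+ cells were again lowest and knockout Flk1- cells highest. The second (1415811_PM_at) read 7.17, 6.83, 7.15 and 6.73, with both Flk1+ arrays above both Flk1- arrays. Flk1+ cells therefore differed from Flk1- cells by -0.51 or 0.42 in the knockout, and by -0.16 or 0.34 in the control, depending on the probe set. No direction by sort can be given for Uhrf1 from these arrays. The genotype differences were -0.19 and -0.02 in Flk1+ cells and 0.16 and -0.10 in Flk1- cells, and for the first probe set they shrank to as little as -0.11 and 0.10 under the scalings.

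Tet3 and Tet2 did not share an order of levels. Tet3 had a single probe set (1439324_PM_at), which read 5.27 (Flk1+) and 5.11 (Flk1-) in the control and 5.58 (Flk1+) and 4.71 (Flk1-) in the knockout. It was thus highest in knockout Flk1+ cells and lowest in knockout Flk1- cells, where Dnmt3l, Dnmt3b and Dnmt1 were highest. The knockout was higher by 0.31 in Flk1+ cells and lower (-0.40) in Flk1- cells. By sort, Flk1+ cells were higher by 0.16 in the control and by 0.87 in the knockout, a difference larger in size than that of 94.6% of genes. After centring on the median the last value was 1.02, past the 2-fold line. The difference of differences for Tet3 was 0.70, and 0.76 to 0.82 under the 3 scalings. The alternatives on the choice of probe sets cannot change its value, since it has a single probe set.

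Tet2 (1455300_PM_at) read 5.87 (Flk1+) and 6.17 (Flk1-) in the control and 5.63 (Flk1+) and 5.94 (Flk1-) in the knockout. Both Flk1+ arrays were below the Flk1- array of their genotype (-0.30 in the control and -0.31 in the knockout), and the knockout was below the control (-0.24 in Flk1+ and -0.23 in Flk1- cells). Under the 3 scalings the sort difference in the knockout was only -0.16 to -0.14, and the genotype difference in Flk1+ cells -0.18 to -0.15. With the values as deposited the sort and genotype differences of Tet2 added up, with a difference of differences of -0.010 whose sign turned under all 3 scalings. The second probe set of Tet2 (1438781_PM_at) was below the floor on all 4 arrays, at 2.76 to 3.05.

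**Figure D2:**
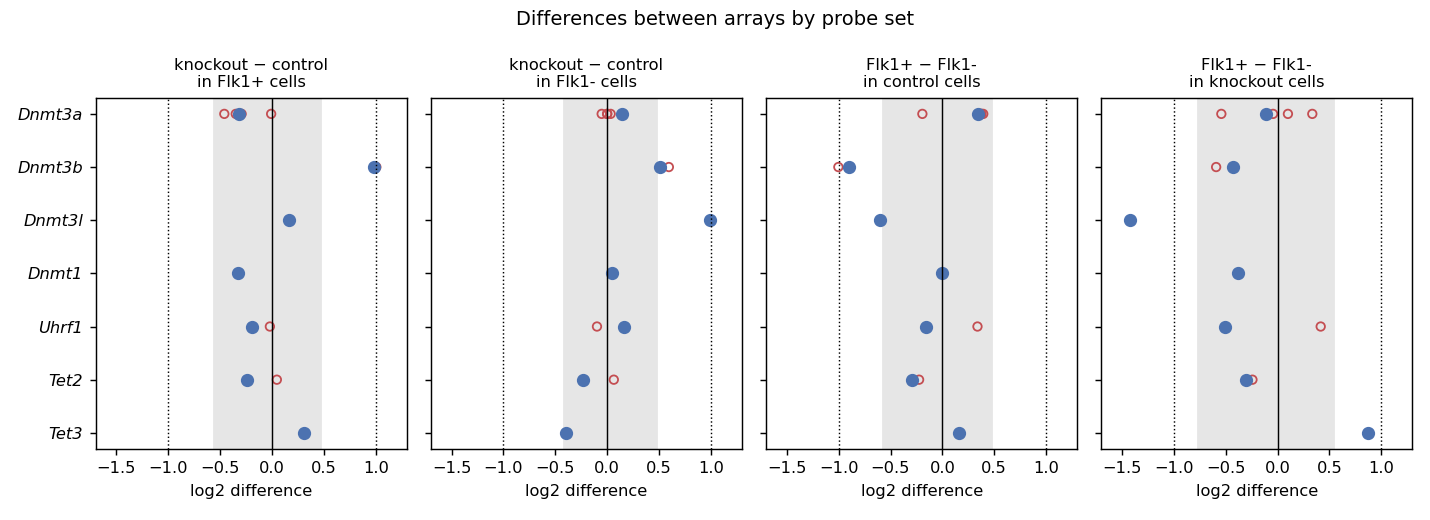
Log2 differences (horizontal axis) of each probe set in the 4 comparisons, with filled points for the probe set with the highest mean and open points for the others. The grey band spans the 5th to 95th percentile of all genes above the floor and the dotted lines mark 2-fold; Dnmt3l at -1.42 by sort in the knockout is the filled point past them, with Dnmt3b (0.98) and Dnmt3l (0.99) just inside.

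Counted by the 2-fold rule, 0 of the 7 genes were apart between knockout and control Flk1+ cells, where 1.85% of 10655 genes above the floor were apart (0.873% higher and 0.976% lower). Likewise 0 of 7 were apart between knockout and control Flk1- cells (1.34% of 10533 genes, 0.389% higher and 0.949% lower) and 0 of 7 between the fractions of the control (2.7% of 10622 genes, 1.2% higher and 1.51% lower). Between the fractions of the knockout 1 of 7 was apart, Dnmt3l on the lower side, against 3.79% of 10688 genes (1.62% higher and 2.17% lower). With 7 genes, a count of 0 or 1 cannot be told from these background shares. The split of all genes apart was 93 higher and 104 lower for genotype in Flk1+ cells (120 and 84 after centring) and 173 higher and 232 lower for sort in the knockout (223 and 147 after centring). In the latter comparison centring moved the median of all genes by 0.16. By sign, 3 of the 7 genes were higher in knockout than control Flk1+ cells (Dnmt3b, Dnmt3l and Tet3), where 42.5% of all genes were higher. Their median over the 7 was -0.19, beside a median of -0.05 over all genes. In Flk1- cells 5 were higher with a median of 0.14 beside 0.04, where 56.8% of all genes were higher. These 5 take in Dnmt1, whose sign turned after centring, and Uhrf1, whose second probe set was lower. Flk1+ cells had 5 lower in the control with a median of -0.16 beside -0.01, where 51.7% of all genes were lower. In the knockout 6 were lower with a median of -0.38 beside -0.08, where 58.6% of all genes were lower. Both counts by sort take in Uhrf1, whose second probe set had the other sign. They also take in Dnmt1 at -0.0051 in the control and Dnmt3a at -0.11 in the knockout, whose signs turned under all 3 scalings. The 4 comparisons share arrays, so their values are not independent of each other.

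Levels of marker genes differed between the arrays along with those of Dnmt3b and Dnmt3l, and in bulk samples a change in the share of a cell type cannot be told apart from a change in RNA per cell. The mean log2 level of 8 pluripotency markers with a probe set was 3.38 (Flk1+) and 6.31 (Flk1-) in the control and 4.84 (Flk1+) and 7.20 (Flk1-) in the knockout, which is the order of Dnmt3l. Above the floor were 4, 8, 6 and 8 of the 8 on these arrays, with Sox2, Zfp42, Esrrb and Dppa3 below it in control Flk1+ cells. The mean level of 16 genes of the primed epiblast, the epiblast after implantation, was 4.87, 5.67, 5.56 and 6.15 on the same arrays. By these means that is again the order of Dnmt3l, and both lists differ from Dnmt3b only in the middle pair. For the primed epiblast list the order of this pair depends on the summary. With its levels summed before taking the log2, control Flk1- was at 10.82 and knockout Flk1+ at 10.88, which gives the order of Dnmt3b. Between knockout and control Flk1+ cells 13 of 14 primed epiblast genes above the floor were higher (7 of them 2-fold), with a median of 0.94. Over all genes above the floor 42.5% were higher there, and 0.873% were 2-fold higher. Cer1, a secreted inhibitor of Nodal and BMP signals, was 2.18 higher, and Cldn6 and Fgf5, which encode an epithelial claudin and an epiblast growth factor, were 1.54 and 1.52 higher. The 10 hemato-endothelial markers ran the other way, with means of 6.15 and 5.84 in Flk1+ and 3.24 and 2.94 in Flk1- cells of control and knockout. The 7 primitive erythroid markers were at 7.13 in control Flk1- cells and at 2.55 to 3.94 elsewhere, with Hba-x, Hbb-bh1, Hbb-y, Klf1 and Alas2 below the floor in both knockout fractions. The means of 8 mesoderm markers, Snai1 among them, also ran opposite to Dnmt3b. They were 5.54 (Flk1+) and 4.83 (Flk1-) in the control and 4.55 and 3.97 in the knockout. Foxf1 and Hand1, transcription factor genes of lateral mesoderm, differed by -2.58 and -2.49 between knockout and control Flk1+ cells. These 2 were the only ones past 2-fold by genotype in either fraction, so the means lean on them. Above the floor, 6 of 7 were lower in knockout than control Flk1+ cells and 4 of 6 in Flk1- cells, where Eomes and Mixl1 were higher. The 8 fibroblast markers had means of 3.57, 2.86, 2.73 and 2.59 in the same order, with Col1a2, Dcn, Lum, Thy1 and S100a4 below the floor on all 4 arrays and the collagen gene Col1a1 at -2.55 in the knockout Flk1+ comparison. The 8 endoderm markers had nearly level means of 4.94 to 5.25, but their genes split by sign. Between knockout and control 4 were higher and 4 lower in Flk1+ cells. In Flk1- cells 3 of the 6 above the floor were higher and 3 lower. Ttr, a visceral endoderm gene, differed by -2.10 and -2.68 between knockout and control in Flk1+ and Flk1- cells. Cer1, which is also in this list, was 2.18 higher in Flk1+ cells. The part of these cell types in the differences of the methylation genes was not tested.

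**Figure D3:**
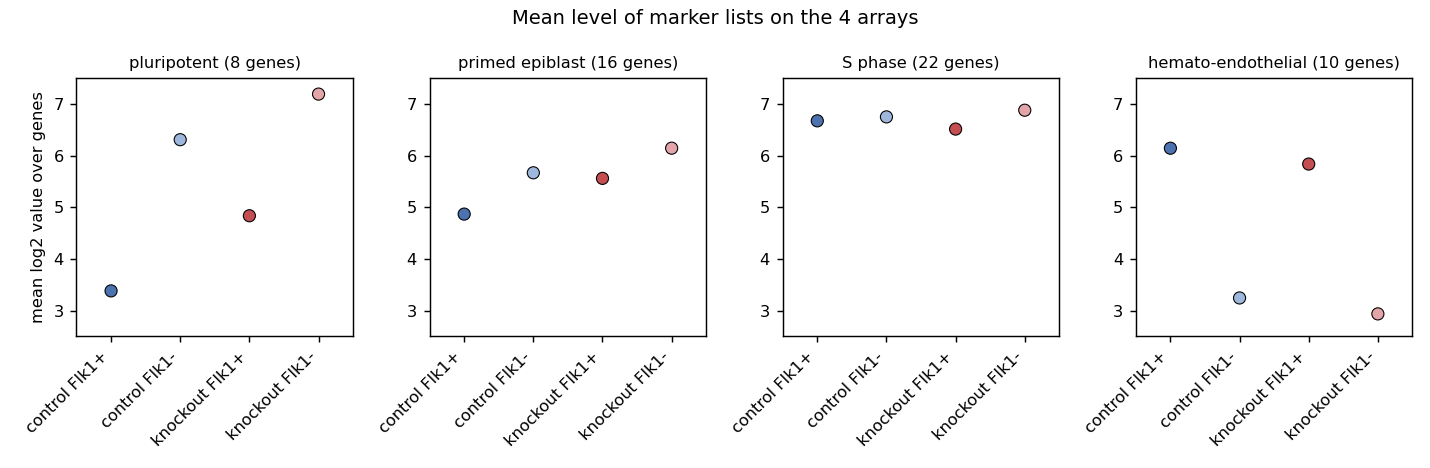
Mean log2 value over the genes of 4 marker lists (vertical axis) on each of the 4 arrays (horizontal axis), 1 point per array. The pluripotency mean runs from 3.38 in control Flk1+ to 7.20 in knockout Flk1- cells, the S phase mean only from 6.52 to 6.88.

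Genes of S phase, in which Dnmt1 and Uhrf1 act, had their lowest mean in knockout Flk1+ cells, at 6.52, and their highest in knockout Flk1- cells, at 6.88, with 6.68 and 6.75 in control Flk1+ and Flk1- cells. Of 22 measured S phase genes, 18 were lower in knockout than control Flk1+ cells (median -0.19), 21 were higher in knockout than control Flk1- cells (median 0.13), and 19 were lower in Flk1+ than Flk1- cells of the knockout (median -0.38). As deposited, all genes above the floor leaned the same way in these comparisons. Of them 57.4% were lower, 56.8% higher and 58.6% lower, with medians of -0.05, 0.04 and -0.08. That lean depends on the scaling, with medians of 0.02, -0.02 and 0.09 after centring and -0.006, 0.028 and -0.011 after quantile normalization. Counts of gene lists were not redone under the scalings. Of the 22, 0 were 2-fold apart in any of the 4 comparisons. The replication licensing gene Cdt1 was the furthest apart by sort in the knockout at -0.98, with its probe sets from -0.98 to -0.06. In that comparison Dnmt1 was at -0.38, while the Uhrf1 probe sets were at -0.51 and 0.42.

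In the values as deposited, partners of the methyltransferases differed in sign between the fractions, on the side to which all genes leaned. Of 17 listed maintenance and de novo cofactors 15 had a probe set, and 12 of the 14 above the floor were lower in knockout than control Flk1+ cells (median -0.17), while 12 of 15 were higher in knockout than control Flk1- cells (median 0.15). In knockout cells 13 of 15 were lower in the Flk1+ fraction with a median of -0.37. Those past 2-fold there with both values above the floor were Morc3 and Hells. Hells, a chromatin remodeler needed for normal DNA methylation, was at 5.22 (Flk1+) and 5.63 (Flk1-) in the control and 4.81 (Flk1+) and 6.17 (Flk1-) in the knockout, and its sort difference of -1.35 in the knockout ranged from -1.35 to -0.37 over 3 probe sets. Morc3 was at 5.79 against 7.17 (-1.38, with probe sets from -1.58 to -1.38). Atf7ip, a partner of the histone methyltransferase Setdb1, was below the floor in knockout Flk1+ cells and at 3.81 in knockout Flk1- cells, at least 1.53-fold apart. The difference of 0.54 for Hells between knockout and control Flk1- cells was the largest of the list in that comparison.

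The demethylation and base excision repair list, to which the products of Tet enzymes pass, had 17 of 19 genes measured. Of those above the floor, 14 of 15 were lower in Flk1+ cells of the control (median -0.13) and 14 of 17 in Flk1+ cells of the knockout (median -0.31). Over all genes above the floor, 51.7% and 58.6% were lower, with medians of -0.01 and -0.08. Several of the control differences were small, such as Xrcc1 at -0.03 and Apex1 at -0.05. Gadd45a, a stress-response gene tied to demethylation, was below the floor in both Flk1+ fractions and at 4.09 and 4.81 in control and knockout Flk1- cells, at least 1.86-fold and 3.07-fold higher there. Gadd45g went the other way, at 0.77 and 0.71 higher in Flk1+ cells of the control and knockout. Idh1, which makes the 2-oxoglutarate that Tet enzymes use as a cosubstrate, differed by -0.89 between knockout and control Flk1+ cells and by -1.13 by sort in the knockout, while Idh2 was 0.54 higher in knockout than control Flk1+ cells by one probe set and -0.20 by the other. Ogt, which binds Tet proteins, differed by -0.63 between knockout and control Flk1- cells, with probe sets from -0.63 to 0.10.

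Readers of methylation differed little between arrays. Of 10 listed methyl-CpG binding proteins 8 were measured and none was 2-fold apart in any comparison, with differences from -0.55 to 0.28 and medians of -0.10 to 0.02. Mbd2, a reader that recruits a repressor complex, had the largest of these, at -0.30 between knockout and control Flk1+ cells (probe sets from -0.51 to -0.30) and -0.55 in Flk1- cells (from -0.65 to -0.55). Mbd1 was at -0.45 in the Flk1+ comparison, with probe sets from -0.45 to -0.02. Zbtb38 was 0.28 and 0.24 higher in the knockout in Flk1+ and Flk1- cells, and Mbd4, a glycosylase that acts on mismatched thymine at CpG sites, was 0.21 higher in knockout Flk1+ cells by one probe set and -0.24 by the other. The CXXC proteins, which bind unmethylated CpG, had 7 of 8 genes measured and none 2-fold apart, with medians of -0.20 to 0.06. Cxxc1 differed by -0.57 in knockout Flk1+ cells, but its probe sets ranged from -0.57 to 0.34. One-carbon genes, which supply the methyl donor, had 11 of 16 genes measured and 9 above the floor, with medians of -0.23 and -0.52 by sort in the control and knockout and none 2-fold apart. Gldc, of glycine cleavage, was 0.76 higher in the knockout in each fraction, and Flk1+ minus Flk1- cells gave -0.87 in each genotype.

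Germline genes that are known to be silenced by promoter methylation gave little signal. Of 22 listed genes 16 had a probe set, of which 7 were above the floor on the knockout Flk1- array and 5 on each of the other arrays. Ddx4, Syce1, Mael, Tex101, Tdrd1, Hormad1, Stk31, Taf7l and Asz1 were below it on all 4 arrays. Tex19.1, which is also expressed in pluripotent cells, was at 4.24 (Flk1+) and 4.88 (Flk1-) in the control and 4.73 and 5.45 in the knockout. Zfp42, a pluripotency gene included in this list, was below the floor in both Flk1+ fractions and at 3.96 and 4.59 in control and knockout Flk1- cells, at least 1.70-fold and 2.63-fold higher there. The median differences were 0.08 and 0.06 for genotype in Flk1+ and Flk1- cells.

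Factors tied to the low methylation of ground state stem cells included Prdm14, which was below the floor on all 4 arrays, as was Tcl1. Of the 12 genes, 9 of the 10 above the floor were higher in knockout than control Flk1- cells, with a median of 0.57. There 56.8% of all genes were higher. In the knockout 9 of 10 genes of the list were lower in Flk1+ than Flk1- cells (median -1.26), beside 58.6% of all genes. Between knockout and control Flk1+ cells 3 of the 6 above the floor were higher and 3 lower, with a median of 0.02. Nanog was 2.03 higher there and Tbx3 differed by -1.60, with probe sets from -1.60 to -0.49. Dppa3, which counters Uhrf1 in the early embryo, was at 6.94 and 7.68 in control and knockout Flk1- cells, at 4.66 in knockout Flk1+ cells and below the floor in control Flk1+ cells. Esrrb and Nr0b1 were 1.72 and 1.29 higher in knockout than control Flk1- cells, although a second probe set of Esrrb gave -0.08.

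**Figure D4:**
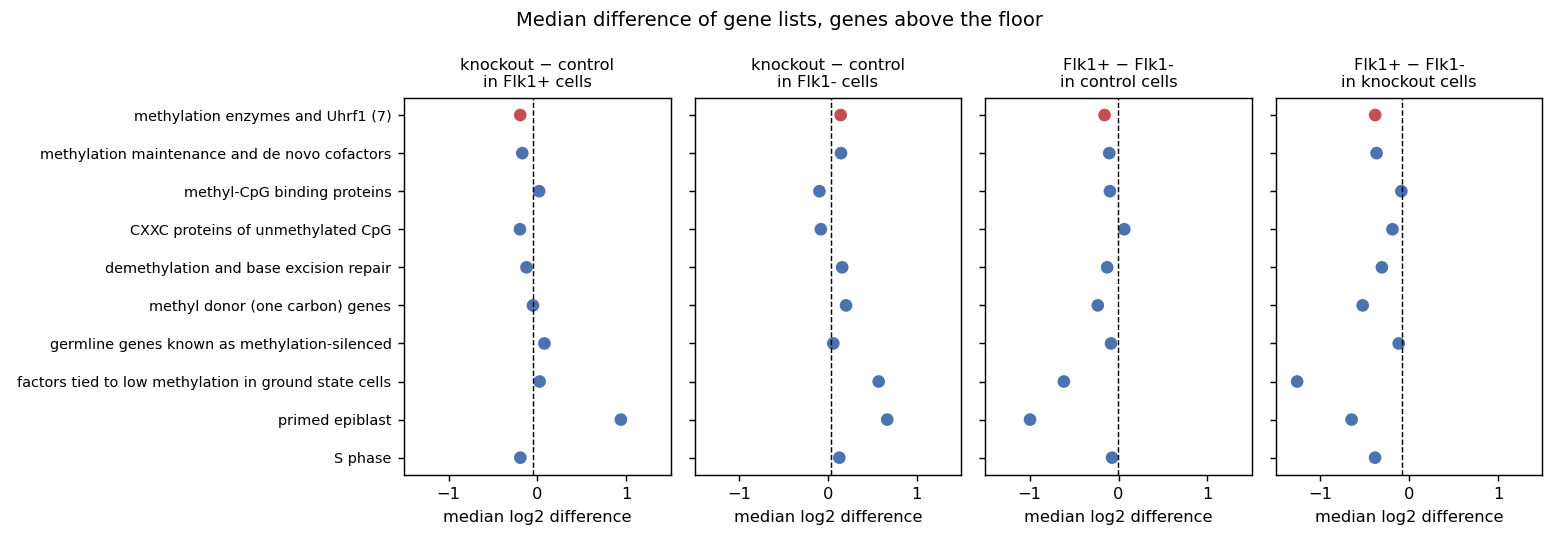
Median log2 difference (horizontal axis) of the genes above the floor in each list (vertical axis), in the 4 comparisons, with the 7 methylation genes in red and the dashed line at the median of all genes above the floor. The lists of maintenance cofactors and S phase, which share Pcna and Lig1, lie beside the methylation genes at -0.37 to -0.38 by sort in the knockout. The primed epiblast list (0.94 for genotype in Flk1+ cells) lies further out.

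By profile over the 4 arrays, the genes nearest to Dnmt3b and Dnmt3l were sought among 881 others that were above the floor on at least 1 array and had a range of at least 1. Likeness was the root mean square distance between profiles centred on their means, so that 0 means equal shape. Nearest to Dnmt3b was Sox17, an endoderm and endothelial transcription factor gene, at a distance of 0.04, with values of 6.003 (Flk1+) and 6.88 (Flk1-) in the control and 6.96 and 7.48 in the knockout. Tle5 and Zdhhc2 followed at 0.05 and 0.06. Nearest to Dnmt3l was Dmrt1, a gonad and germ cell transcription factor gene, at 0.05, although it was above the floor only in Flk1- cells, at 3.29 and 4.26 in control and knockout. Usp28 and Cox7a1 followed at 0.07 and 0.09. With 4 points per profile, these distances are given as a description.

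**Figure D5:**
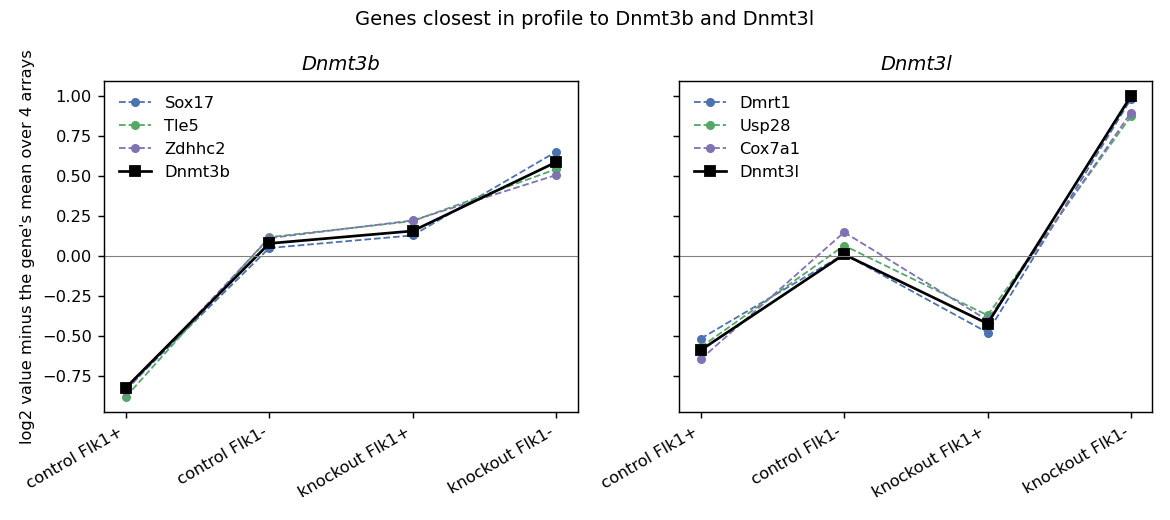
Log2 value minus the gene's mean over the 4 arrays (vertical axis) for Dnmt3b and Dnmt3l (black squares) and the 3 genes nearest to each in profile (dashed lines), on the 4 arrays (horizontal axis). Sox17 stays closest to Dnmt3b, at a distance of 0.04, and Dmrt1 closest to Dnmt3l, at 0.05.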

How the data were processed

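Total RNA (50 ng, per the labels' protocols) from 4 sorted samples was amplified, labelled with biotin and hybridised to Affymetrix arrays. The authors deposited log2 values of 45141 probe sets, which were used unchanged. RMA and limma are named, without a role or version, per the submitters' processing notes. The 104 control probe sets, the 551 paired with several genes and the 15588 paired with none were left out of gene counts, which leaves 28898. For a gene with several probe sets, that with the highest mean stands for it.

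Differences of log2 values between 2 arrays were called at 1 (2-fold) for genes above the floor on either array. The number of arrays limits the precision, and without replicates no p-value is given. Members and lists were chosen with earlier results of these data known. Named genes are all probe sets of the members, genes drawn from the up to 4 largest differences per list in each comparison, and the 3 nearest profiles. Genes named as checks of the arrays or as below the floor fall outside that rule and were chosen after their values were seen. A bound against a gene below the floor is computed against the floor. The code of the calling rule was run on simulated data for knockout minus control in Flk1+ cells. It called 200 of 200 genes changed by design and 0 of 10298 others. The simulated shifts were larger than the cut, on genes well above the floor, and the noise was far smaller than the cut. The outcome therefore checks only that the code runs as written, and says nothing of genes near the cut. Among the alternatives, the size rule was set to 1.5-fold or 3-fold and the floor was raised to the median or dropped. Arrays were also rescaled by repeated quantile normalization, by centring each on its median over genes above the floor, or by cyclic loess (limma 3.58.1, span 0.3, 3 rounds). Last, probe sets of a gene were averaged, or those named _s_at or _x_at were left out. Python 3.11.15 with pandas 2.3.3 was used.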

Additional observations from a re-analysis of the deposited data

Results flagged for a closer look

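Some genotype differences had opposite signs in Flk1+ and Flk1- cells. With 1 array per group these differences between fractions were not tested. For Dnmt1 the knockout minus control difference was -0.33 in Flk1+ and 0.05 in Flk1- cells, a difference of -0.38. For Dnmt3a it was -0.31 and 0.14, a difference of -0.46, and by the same arithmetic its Flk1+ minus Flk1- difference was 0.35 in the control and -0.11 in the knockout, again -0.46 apart. For Uhrf1 it was -0.19 and 0.16, a difference of -0.35, which the second probe set gave as 0.08. For Tet3 it was 0.31 and -0.40, a difference of 0.70. Among genes below the floor on all arrays the same quantity had an SD of 0.23. Genes with signal are the closer comparison. Of those above the floor on any array, 71.9% had a smaller value in size than Dnmt1. For Dnmt3a this share was 79.8%, for the first probe set of Uhrf1 68.7% and for Tet3 93.7%. The signs of 0.05 for Dnmt1 and -0.11 for Dnmt3a turned under at least 1 scaling, as given above.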

How the results depend on the processing

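Pairing by replicate was not possible because each group holds 1 array, so groups share fewer than 2 replicate numbers, and no replicate could be left out. Differences within each fraction and within each genotype are given above without a test. The count of methylation genes 2-fold apart changed from 0 to 1 for genotype in Flk1+ cells after quantile normalization, centring or cyclic loess and with the 1.5-fold rule (Dnmt3b, at 0.98 to 1.04 over the scalings and probe set choices). For genotype in Flk1- cells it changed from 0 to 1 under cyclic loess and the 1.5-fold rule (Dnmt3l, 0.93 to 1.01), and for sort in the control from 0 to 2 under the 1.5-fold rule. For sort in the knockout it changed from 1 to 2 after centring or with the 1.5-fold rule, to 0 with the 3-fold rule, and to 0 without probe sets ending in _s_at or _x_at, since the only Dnmt3l probe set is then left out. Over all genes, the counts of 197, 141, 287 and 405 apart became 818, 580, 876 and 1598 with the 1.5-fold rule and 59, 42, 102 and 108 with the 3-fold rule, in the order genotype in Flk1+, genotype in Flk1-, sort in control and sort in knockout. Under the other 7 alternatives these counts stayed within 1.5 times. Floors at the median or at none changed no count of the methylation genes. Signs that turned are those given above for Dnmt1, Dnmt3a and Tet2, and for Uhrf1 by sort in the control with the mean of its probe sets (0.09). Signal limits Dnmt3l most, since its lowest value, 3.47, lies near the floor of 3.19.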
